A study of Mus musculus with 2 samples.

Results

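The genes described here are 36 imprinted genes of the mouse, chosen by name from general knowledge of imprinting. All 36 were found among the 43346 entries with mouse gene identifiers. They were measured in poly(A)-selected RNA of adipose tissue from a male C57BL/6J mouse aged 10 weeks, extracted with a kit made for lipid-rich tissue. Per the labels, 1 biosample was sequenced as 2 technical libraries. Library 2 was made in May 2015 and lies outside the 2014 publication. No genotype other than the strain and no treatment is given, and the labels hold a single group, so nothing was compared between conditions. Every SD is the technical spread between the 2 libraries, and an effect of the library cannot be told apart from one of its date. The mouse was of 1 inbred strain and reads were not split by allele, so the parental origin given for each gene is background knowledge and was not measured.

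At an imprinted gene, DNA methylation laid down in the egg or the sperm marks the copy from 1 parent. Only 1 parental copy is then transcribed, which may be the marked or the unmarked one. Imprinted genes lie in clusters, in which 1 methylated control region sets the expression of several coding genes and, often, of a long noncoding RNA. In fat, imprinted genes are known for roles in preadipocyte differentiation (Dlk1), adipocyte size (Mest), insulin signalling (Grb10) and hormone response (Gnas).

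Reads assigned to genes summed to 19954869 expected counts in library 1 and 19256807 in library 2. The imprinted genes held 35622 of these counts (0.179%) and 45230 (0.235%). Levels are given in TPM, a unit per length that sums to the same total in each library, so genes can be compared within a library. Mitochondrial genes and their nuclear copies took 51.7% of all TPM in library 1 and 15.9% in library 2, so the TPM of most other genes was raised in library 2. The ratio of library 2 to library 1 was therefore taken from counts, with library sizes scaled by TMM (trimmed mean of M-values), and is given as a log2 value with a 95% exact Clopper-Pearson interval that covers counting error only. A gene was called higher or lower where its ratio was at least 2-fold and the interval left out 0. The median half-width of these intervals over the imprinted genes was 0.22 on the log2 scale.

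The tissue label was checked against marker genes. All 10 adipocyte markers reached 1 TPM in each library, and their levels summed to 6926 and 16206 TPM (highest Fabp4, Cfd and Lpl). All 10 epididymis markers also reached 1 TPM in each library, with summed levels of 46366 and 51345 TPM (Gpx5, Spag11b and Crisp1), above the adipocyte markers. The 10 testis germ cell markers were all at 1 TPM or more as well, with sums of 252 and 1388 TPM (Prm2, Prm1 and Smcp). Stromal progenitor markers (10 of 10 at 1 TPM or more, 1396 and 1367 TPM, Dcn, Ly6a and Cd34), endothelial markers (6 of 6, 83.3 and 264 TPM, Egfl7, Pecam1 and Cdh5) and mesothelial markers (6 of 6, 67.1 and 252 TPM, Krt19, Upk1b and Upk3b) were present. Leydig cell markers (4 of 5, 27.4 and 72.5 TPM, Insl3, Cyp17a1 and Hsd3b1) and neuronal markers (3 of 8, 6.07 and 23.5 TPM, Rbfox3, Uchl1 and Stmn2) were low. Muscle (1 of 8, 23.8 and 42.6 TPM, Myl1, Acta1 and Ckm, with Pax7, Myog, Myod1 and Myh4 at 0 in both) and brown fat markers (1 of 5, 2.06 and 20.7 TPM, Cox8b, Ppara and Cidea) were fewer. The part that cells other than fat cells take in the levels of the imprinted genes was not tested. In whole tissue, fewer cells of a type and less RNA per cell cannot be told apart.

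The promoters of 4 abundant paternally expressed genes are shown. For Plagl1 and Mest, the deposited transcript values given below bear on which start is used. Each runs 5′ to 3′ on the gene's own strand, from 250 bases before to 50 bases after a RefSeq start (GRCm38.p6). Capitals mark TGCCGC or its reverse complement GCGGCA, the hexamer that the zinc finger protein ZFP57 is known to bind on the methylated allele. The windows are chr2:157559828-157560127 on the plus strand for Nnat, chr10:13090582-13090881 on the plus strand for Plagl1, chr6:30737800-30738099 on the plus strand for Mest and chr7:6730370-6730669 on the minus strand for Peg3.
Nnat: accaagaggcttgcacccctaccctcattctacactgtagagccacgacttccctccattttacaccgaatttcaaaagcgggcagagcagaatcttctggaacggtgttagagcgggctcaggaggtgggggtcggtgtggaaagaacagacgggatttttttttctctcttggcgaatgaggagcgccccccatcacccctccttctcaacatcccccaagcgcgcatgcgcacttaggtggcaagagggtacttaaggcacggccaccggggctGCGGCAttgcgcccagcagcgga
Plagl1: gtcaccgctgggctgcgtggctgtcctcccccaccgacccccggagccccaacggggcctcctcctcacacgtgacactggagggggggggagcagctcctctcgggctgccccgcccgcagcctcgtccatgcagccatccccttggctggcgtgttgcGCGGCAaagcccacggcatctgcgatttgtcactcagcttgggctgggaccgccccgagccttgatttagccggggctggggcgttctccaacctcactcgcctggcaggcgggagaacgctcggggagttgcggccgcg
Mest: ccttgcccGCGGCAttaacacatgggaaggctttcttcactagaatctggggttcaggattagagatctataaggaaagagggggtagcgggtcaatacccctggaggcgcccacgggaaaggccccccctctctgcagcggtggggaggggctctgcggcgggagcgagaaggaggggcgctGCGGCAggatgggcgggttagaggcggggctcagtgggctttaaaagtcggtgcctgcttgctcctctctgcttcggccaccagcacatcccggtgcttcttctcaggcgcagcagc
Peg3: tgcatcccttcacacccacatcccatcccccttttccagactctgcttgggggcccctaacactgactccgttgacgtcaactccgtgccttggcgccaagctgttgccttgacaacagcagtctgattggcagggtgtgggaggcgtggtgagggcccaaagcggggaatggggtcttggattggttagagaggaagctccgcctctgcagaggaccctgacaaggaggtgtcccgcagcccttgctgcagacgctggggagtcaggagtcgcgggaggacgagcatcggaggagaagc

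The hexamer stood once in the Nnat and in the Plagl1 window, at 2 places in the Mest window and at none in the Peg3 window. Of the 36 genes, 29 had a promoter in the RefSeq table (H19, Rtl1, Peg10, Sgce, Cdkn1c, Kcnq1 and Impact did not), with 47 windows in all. The hexamer was in 10 of the 47 windows (21.3%) and in 3813 of the 32851 windows of all genes (11.6%), searched on both strands. The imprinted genes' windows held a median of 15 CpG dinucleotides and those of all genes 7. Their median GC content was 59.3%, against 52.7% over all genes. The hexamer itself holds a CpG, and its shares were not matched for base composition. The median was 10 both for the 23 windows of paternally and for the 13 windows of maternally expressed genes. The remaining windows, those of Grb10, Gnas and Begain, held from 9 to 46 and raised the median over all 47. A gene with several starts entered with each of its windows, and some of these overlap (Mest, Gnas and Begain), so the windows are not independent. A match is a description of these letters and not a binding site.

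Several of the noncoding genes are known as hosts of microRNAs, short RNAs that repress messenger RNAs through the seed, bases 2 to 8. Within H19 lies 1 hairpin on the same strand, within Meg3 1, within Rian 3, within Mirg 14 and within the coding gene Mest 1 (RefSeq, GRCm38.p6). Within Rtl1 lie 6 hairpins on the opposite strand and 1 on the same strand, and Usp29 holds 1. Meg3 holds mature products of both Mir770 and Mir1906-1, although only 1 hairpin was listed within it. Mature microRNAs of 5 hosts that were detected here are shown in RNA letters with the seed in capitals.
miR-675-5p: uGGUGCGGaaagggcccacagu
miR-770-5p: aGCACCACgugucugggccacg
miR-370-3p: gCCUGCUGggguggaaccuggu
miR-410-3p: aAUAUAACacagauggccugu
miR-335-5p: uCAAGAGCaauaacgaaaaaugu

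These come from H19, Meg3, Rian, Mirg and Mest, in that order, and their 5 seeds differ. Among the 43 mature microRNAs of all hosts, miR-453 and miR-496a-5p of Mirg shared a seed and no other pair did. The libraries hold poly(A) RNA, and mature microRNAs were not measured. The 22 hairpin genes with an entry in the tables held 0 counts in both libraries, so the values below are those of the host transcripts.

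In both libraries, 23 of the 36 imprinted genes (63.9%) stood at 1 TPM or above. The share was 30.5% over all genes and 57.1% over protein-coding genes. A further 7 (Phlda2, Slc22a18, Dlk1, Mirg, Asb4, Mkrn3 and Dio3) passed 1 TPM in library 2 alone, none in library 1 alone, and 6 (Zim1, Begain, Kcnq1ot1, Rtl1, Usp29 and Magel2) in neither. The levels were very uneven. Nnat and Gnas alone made up 66.8% of the summed TPM of the 36 genes in library 1 and 81.3% in library 2, as the plot of levels by gene shows.

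**Figure D1:**
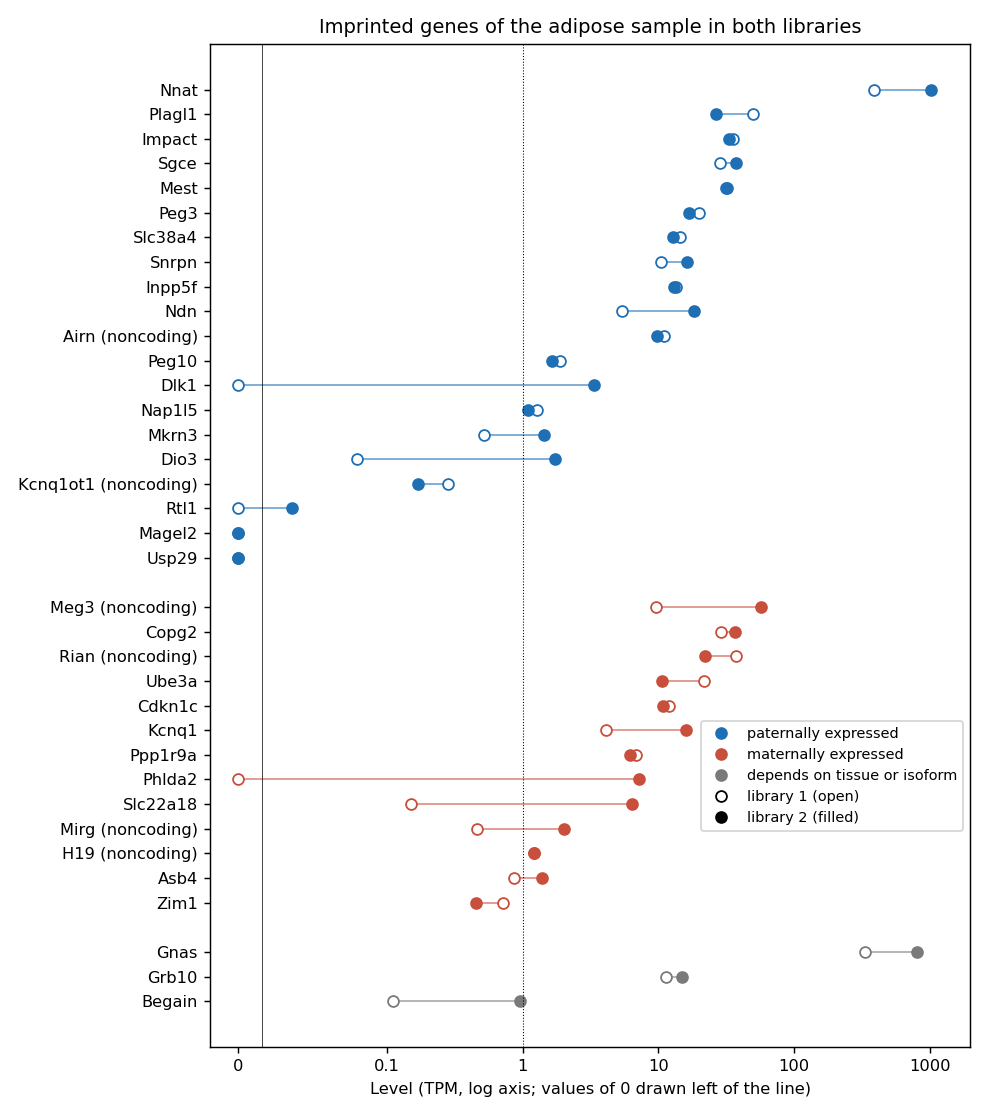
Level of each imprinted gene in TPM (log axis, values of 0 left of the vertical line) in library 1 (open points) and library 2 (filled points), grouped by the parental copy known to be expressed; the dotted line marks 1 TPM. Nnat and Gnas stand above 300 TPM in both libraries, and every other gene is below 60 TPM.

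Nnat, the paternally expressed gene of neuronatin, a small proteolipid of the endoplasmic reticulum (chr2:157560078-157562522, plus strand), had 6175 and 13407 counts in libraries 1 and 2. Its level was 388 and 1017 TPM (mean 702 ± 444 TPM, SD, n = 2), which placed it 168th and 124th of all genes. The scaled count ratio was 0.76 (0.72 to 0.81), under 2-fold. Neuronal markers were low beside it, with a median of 0.15 and 0.87 TPM. Nnat lies within an intron of Blcap, which is read from the opposite strand and stood at 24.1 and 67.5 TPM. Whether the counting used strand is not stated, so reads of the 2 genes may not be told apart where they overlap.

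Gnas, which encodes the stimulatory G protein alpha subunit that couples hormone receptors to cyclic AMP, had 8503 and 16539 counts. Its level was 335 and 808 TPM (mean 572 ± 334 TPM), and the ratio was 0.61 (0.57 to 0.64). Gnas is known for alternative first exons that differ in imprinting. The 4 transcripts from the most downstream of its main start regions held 95.4% of its TPM in library 1 and 98.1% in library 2. This is the start of the ubiquitous G protein form, which most tissues read from both alleles. The 5 transcripts of the first region upstream (the maternally expressed Nesp form) held 3.42% and 0.05%, resting on 101 and 12.3 counts. The 7 transcripts of the next region, that of the paternally expressed XLas form, were all at 0 in both libraries. Transcripts that start just before the main region (the exon 1A form) held 0.39% and 0.97%.

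The other paternally expressed coding genes above 10 TPM on average covered a narrow range. Plagl1 (Zac1), a zinc finger transcription factor that restrains the cell cycle (chr10:13060504-13131694), had 3850 and 1379 counts, and 49.98 and 26.8 TPM. Its ratio was -1.84 (-1.93 to -1.75), lower in library 2. The 22 Plagl1 transcripts that start in or just after the window printed above, from 13090691 to 13091013 on chromosome 10, held 94.96% and 91.1% of its TPM. Impact, a regulator of the translational stress response, stood at 35.7 and 33.3 TPM (1979 and 1448 counts). Sgce, the epsilon-sarcoglycan gene, stood at 28.5 and 37.5 TPM. These last 2 genes were not called in either direction.

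Mest, a member of the alpha/beta hydrolase family that is known as a marker of fat expansion, had 1274 and 996 counts. Its level of 31.5 and 31.9 TPM was nearly equal in the libraries (SD 0.276 TPM), while its count ratio was -0.71. All of its TPM in both libraries fell on the transcripts that start at or after the window printed above, and the 5 annotated transcripts that start upstream were at 0. Peg3, a large zinc finger protein of the Kruppel family, stood at 20.1 and 16.8 TPM with 2786 and 1834 counts. Its ratio of -0.96 lay just inside the 2-fold limit. Slc38a4, an amino acid transporter of the placenta and liver, stood at 14.5 and 12.8 TPM, and its ratio of -1.003 (-1.16 to -0.85) lay just outside it. With DESeq2 size factors the ratio of Slc38a4 was -0.971 and it was not called, nor was it with total counts or with the GC trend removed. Inpp5f, an inositol phosphatase, stood at 13.4 and 13.1 TPM. Its transcripts that start inside the gene, among which lies the known imprinted variant, together held 66.7% and 66.1% of its TPM. Within that group the shares moved. A coding transcript of 2609 bases held 61.6% in library 1 and 32.1% in library 2, and one with a retained intron held 0 and 22.2%.

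Snrpn and Ndn belong to the cluster on chromosome 7 that corresponds to the Prader-Willi region. Snrpn, which encodes a small nuclear ribonucleoprotein, stood at 10.5 and 16.2 TPM. Its count in library 2 was not whole (379.87), so it shared reads with another entry, and its value is uncertain. Snurf, read from the same strand of the same locus, was listed at 0 in library 1 and at 20.9 TPM in library 2. That level rests on 14.13 counts, which are not whole either, so it is as uncertain. Ndn (necdin), a growth suppressor of neurons and preadipocytes, had 135 and 360 counts, and 5.39 and 18.3 TPM. Its ratio was 1.06 (0.77 to 1.36), higher in library 2. Mkrn3, a ring finger protein, stood at 0.52 and 1.45 TPM and was not called. Magel2, a partner of ubiquitin ligases, had 0 counts in both libraries, where the floor of 3 counts equals 0.0392 and 0.0501 TPM. Ube3a, the maternally expressed ubiquitin ligase of the same cluster, stood at 21.6 and 10.7 TPM (1810 and 703 counts) and was lower in library 2 (-1.72, -1.85 to -1.59). Ube3a is imprinted in neurons and read from both alleles in most other tissues. Its antisense partner Snhg14 stood at 6.85 and 4.43 TPM, and reads in their overlap may not be told apart.

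Among neighbours, levels differed widely, as the plot of 4 clusters in genome order shows. Sgce and Peg10, a retrotransposon-derived gene needed in the placenta, are read from a shared promoter region in opposite directions. Peg10 stood at 1.89 and 1.65 TPM, so that Sgce was 15.1 and 22.7 times as abundant. Ppp1r9a (neurabin) and Asb4, maternally expressed in some tissues only and next to this pair, stood at 6.87 and 6.17 TPM and at 0.87 and 1.40 TPM. Peg3 was 27.9 and 37.3 times as abundant as its maternally expressed neighbour Zim1, a zinc finger gene at 0.72 and 0.45 TPM. Usp29, which shares a promoter region with Peg3, had 0 counts in both libraries. Mest and Copg2, a coatomer subunit that overlaps Mest at its end on the opposite strand, were nearly equal, with Mest 1.09 and 0.872 times Copg2 (28.8 and 36.5 TPM). Reads in their overlap may not be told apart.

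**Figure D2:**
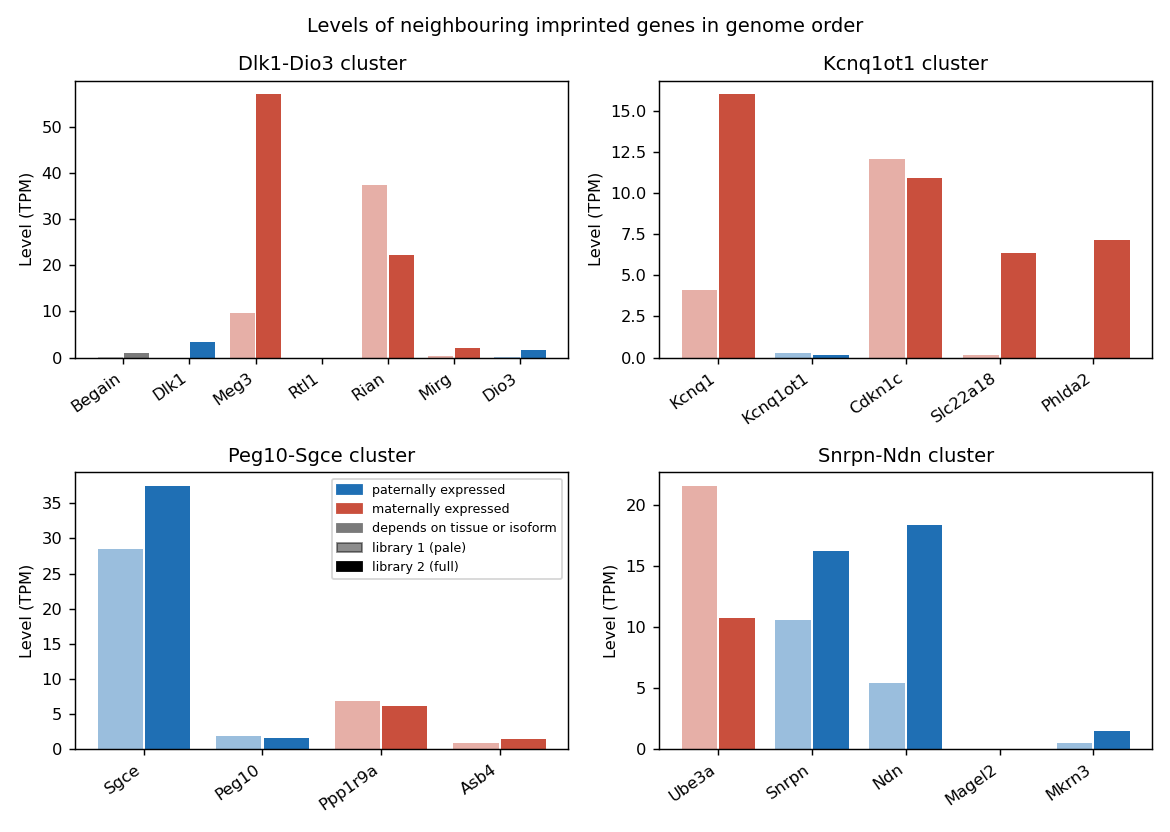
Level in TPM of neighbouring imprinted genes in genome order for 4 clusters, with library 1 as pale and library 2 as full bars, coloured by the parental copy known to be expressed. Meg3 and Rian are the 2 high genes of the Dlk1-Dio3 cluster, Cdkn1c is the gene of the Kcnq1ot1 cluster above 10 TPM in both libraries, and Sgce is far above Peg10; bars at or near 0 are not visible.

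The Dlk1-Dio3 cluster on chromosome 12 carries coding genes read from the paternal copy and noncoding RNAs read from the maternal copy. Dlk1, the transmembrane inhibitor of adipocyte differentiation that marks preadipocytes, had 0 counts in library 1 and 49 in library 2. Its level was 0 and 3.37 TPM, and its scaled count was at least 12.8-fold higher in library 2 with library 1 set to the floor of 3 counts. The lower end of its counting interval was 3.32 on the log2 scale, which is less than that fold. Stromal progenitor markers had medians of 43.2 and 41.9 TPM. Dio3, the deiodinase that inactivates thyroid hormone, had 2 and 43 counts (0.06 and 1.74 TPM) and a ratio of 3.77 (2.13 to 7.16). Rtl1, a retrotransposon-derived gene, had 0 and 2 counts. Begain, a synaptic scaffold gene whose imprinting depends on isoform, had 2 and 17 counts (0.11 and 0.96 TPM) and a ratio of 2.45 (0.66 to 5.89).

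Of the noncoding RNAs of this cluster, Meg3 and Rian were more abundant than each of its coding genes in both libraries, and Mirg was below Dlk1 in library 2. Meg3 (chr12:109541001-109571726) had 611 and 1018 counts, and Rian 659 and 409. Meg3 stood at 9.61 and 57.0 TPM and Rian at 37.4 and 22.3 TPM, so that Meg3 was 0.257 times Rian in library 1 and 2.56 times in library 2. The order of the 2 genes thus reversed between the libraries. Meg3 was 16.9 times Dlk1 in library 2. The log2 ratio of Meg3 was 2.57 in TPM, but 0.38 (0.24 to 0.53) in scaled counts. Over all genes compared, the ratio in TPM exceeded that in counts by a median of 0.71. The effective length that the deposited tables assign to Meg3 was 3714 bases in library 1 and 1334 in library 2. Rian was called lower in library 2 (-1.04, -1.22 to -0.86). Mirg had 11 and 15 counts, and stood at 0.46 and 2.02 TPM with an effective length of 1412 and 556 bases. Its count ratio of 0.08 (-1.13 to 1.36) showed no difference beyond counting error.

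The other noncoding RNAs come from 3 further clusters. H19, the maternally expressed RNA next to Igf2 and the host of miR-675, had 17 and 26 counts. Its level was 1.21 TPM in both libraries, with an effective length of 820 and 1606 bases, and its count ratio was 0.24 (-0.68 to 1.23). Airn, the paternally expressed RNA that silences Igf2r, had 125 and 106 counts, and stood at 11.0 and 9.76 TPM. It is antisense to Igf2r, which stood at 5.16 and 14.7 TPM, and reads in their overlap may not be told apart. Kcnq1ot1, the paternally expressed RNA that silences its cluster on distal chromosome 7, had 397 and 189 counts, more than Airn. Per length it was the lowest of the noncoding RNAs, at 0.28 and 0.17 TPM, since its effective length was 84208 and 84211 bases. Its ratio was -1.42 (-1.68 to -1.17), lower in library 2. Reads in its overlap with Kcnq1, on the opposite strand, may not be told apart from those of Kcnq1.

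The Kcnq1ot1 cluster holds 4 maternally expressed coding genes among those described. Cdkn1c, the cyclin-dependent kinase inhibitor p57, had 352 and 251 counts and stood at 12.1 and 10.9 TPM. Its ratio of -0.84 (-1.08 to -0.60) was not called. Kcnq1, a potassium channel subunit that overlaps Kcnq1ot1 on the other strand, had 161 and 531 counts, and 4.10 and 16.0 TPM (ratio 1.36, 1.11 to 1.63). Slc22a18, a membrane transporter, had 3 and 89 counts, and 0.15 and 6.36 TPM (ratio 4.32, 2.94 to 6.84). Phlda2, a pleckstrin homology protein that restrains placental growth, had 0 and 55 counts, and 0 and 7.17 TPM, and its scaled count was at least 14.3-fold higher in library 2 against the floor of 3 counts. The lower end of its interval was 3.50 on the log2 scale, again less than that fold. Kcnq1, Slc22a18 and Phlda2 were called higher in library 2. All 3 lie above 50% GC, where 61.3% of all tested genes were higher, and Slc22a18 and Phlda2 entered the comparison through library 2 alone. With the trend over GC content removed, the ratio of Kcnq1 was -0.88.

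Of the remaining genes, Grb10, an adaptor that dampens insulin receptor signalling and is read from the maternal copy in most tissues and the paternal copy in neurons, stood at 11.4 and 14.8 TPM (893 and 903 counts) and was not called. Nap1l5, a nucleosome assembly protein gene inside an intron of Herc3, stood at 1.27 and 1.09 TPM on 37 and 25 counts. Herc3, on the opposite strand, stood at 10.2 and 13.4 TPM, and reads of both genes may not be told apart.

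The paternally expressed genes (20) had median levels of 7.96 and 11.3 TPM in libraries 1 and 2, and 13 of them reached 1 TPM in both. The maternally expressed genes (13) had medians of 4.10 and 7.17 TPM, and 8 reached 1 TPM in both. The medians of the mean levels were 11.1 and 6.52 TPM. The paternal median was thus above the maternal one in each library, but the maternal range lay within the paternal one. Mean levels ran from 0 to 702 TPM among paternally and from 0.585 to 33.3 TPM among maternally expressed genes. Without Nnat, the gene of the largest level, the paternal median was 10.4 TPM. Without Ube3a, Copg2, Ppp1r9a and Asb4, whose imprinting is limited to some tissues, the maternal median was 3.59 TPM. Grb10, Gnas and Begain, whose expressed copy depends on tissue or isoform, were in neither group. Grb10, read from the maternal copy in most tissues, stood at a mean of 13.1 TPM, above the maternal median. The gap between the medians thus depends on which genes were placed in each group. The groups also differed in GC content, with medians of 46.8% for paternally and 51.95% for maternally expressed genes. Since the ratio between the libraries moved with GC content, levels may do so too, and its part in the gap was not tested. Genes of 1 cluster share control elements and are not replicates, so no test was made.

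The coding genes (30) had medians of 6.13 and 10.8 TPM and the noncoding genes (6) of 5.41 and 5.89 TPM. Of the coding genes 19 (63.3%), and of the noncoding genes 4 (66.7%), reached 1 TPM in both. Over all annotated long noncoding biotypes (lincRNA, antisense and processed transcript) the share was 10.1%. These 6 RNAs are well known and were chosen by name. The highest noncoding level was 57.0 TPM (Meg3, library 2), and the highest coding level was 1017 TPM (Nnat, library 2).

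Of the 36 genes, 33 had at least 10 counts over both libraries and entered the comparison of the libraries. Rtl1, Usp29 and Magel2 did not. Called were 13 (39.4%, against 48.2% of all tested genes), with 7 higher in library 2 (21.2%, against 30.7%) and 6 lower (18.2%, against 17.5%). The 7 higher genes were Phlda2, Dlk1, Slc22a18, Dio3, Begain, Kcnq1 and Ndn. The first 5 of these had at most 3 counts in library 1 and entered the comparison through library 2 alone, so that they could only differ upward. The 6 lower genes were Plagl1, Ube3a, Kcnq1ot1, Zim1 (39 and 20 counts, ratio -1.30), Rian and Slc38a4. With total counts as library sizes, which raise the log2 ratio of every gene by 0.41, 10 genes were higher (37.3% of all tested genes were) and 3 lower (6.59%). The median ratio of the 33 genes was -0.34 and that of all tested genes 0.06. The genes with 0 counts set at their bound left that median at -0.34. By parental origin the counts were 3 higher and 3 lower of 17 paternally, and 3 higher and 3 lower of 13 maternally expressed genes. The coding genes gave 7 higher and 4 lower of 27 tested (25.9% and 14.8%, against 32.8% and 16.6% of all protein-coding genes). The 6 noncoding genes gave 0 higher and 2 lower, where 13.7% and 17.95% of all genes of the long noncoding biotypes were. With 6 genes these shares are not set apart.

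The ratio moved with the GC content of the transcripts, among the imprinted genes as among all genes, as the plot of ratio against GC content shows. Over the 33 genes, Spearman's rho between GC content and ratio was 0.62 and Pearson's r 0.64, given as a description since the points share the 2 libraries. Of the genes under 50% GC (20 tested), 1 was higher and 5 were lower in library 2, where 1.95% and 33% of all such genes were. Of those at 50% GC or more (13 tested), 6 were higher and 1 was lower, where 61.3% and 0.871% of all such genes were. The exceptions were Ndn, at 44.5% GC and higher in library 2, and Plagl1, at 51.4% GC and lower. GC content was pooled over all annotated transcripts of a gene, with or without reads. The leading Plagl1 transcript, with 87.4% and 72.2% of its TPM, has 46.4% GC. Plagl1 is thus an exception to the split at 50% GC by its pooled GC content only. By either GC content its ratio of -1.84 lay under the 25th percentile of all genes in its GC band, as given below.

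**Figure D3:**
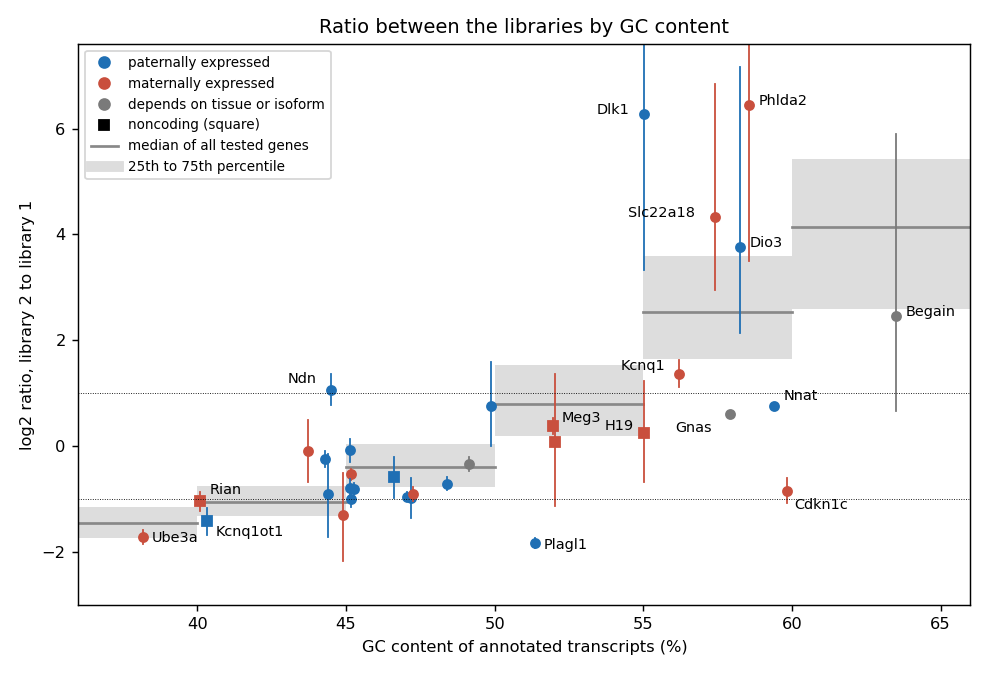
Log2 ratio of library 2 to library 1 against the GC content (%) of each imprinted gene's transcripts, with 95% counting intervals (cut at the top of the axis where they have no upper end); the grey line and band give the median and the 25th to 75th percentile of all tested genes in each GC band, and dotted lines mark 2-fold. Of the 33 genes, 15 lie below the band of their GC content, among them Cdkn1c, Nnat, Gnas, H19 and Plagl1. Another 8 lie above their band, among them Ndn. GC content is pooled over all annotated transcripts of a gene.

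The imprinted genes were also set against all genes of like GC content, in 6 bands. Of the 33 tested, 15 lay under the 25th percentile of their band, 10 between the 25th and the 75th and 8 above the 75th. In the band from 55 to 60% GC, the median ratio of all genes was 2.53 (25th percentile 1.64). Cdkn1c (-0.84), H19 (0.24), Gnas (0.61), Nnat (0.76) and Kcnq1 (1.36) all lay under that percentile, while Slc22a18, Dio3, Dlk1 and Phlda2, with at most 3 counts in library 1, lay above the 75th. None of the 9 imprinted genes tested in this band lay between these percentiles. The groups are parted by the counts of library 1, which enter the ratio itself. Only 0.419% of the band's genes had a lower ratio than Cdkn1c. In the band from 50 to 55%, 0.553% lay under Plagl1. By the 46.4% GC of its leading transcript, Plagl1 (-1.84) would fall in the band from 45 to 50%, where the 25th percentile was -0.78. In the band from 40 to 45%, 99.1% lay under Ndn. With the trend over GC content removed, 4 imprinted genes (Phlda2, Dlk1, Slc22a18 and Ndn) remained among the higher genes, where 9.9% of all genes were higher. Plagl1, Cdkn1c, Gnas, Nnat and H19 were then the 5 lower genes, where 8.55% of all genes were lower. The calls in either direction made up 18.4% of all genes. These calls use the pooled GC content, which for Gnas is 57.9%, against 54.4% and 55.4% in its leading transcripts of libraries 1 and 2. What else differs between the libraries for these genes was not tested.

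The transcripts assigned to a gene also differed between the libraries. Of the 36 genes, 17 had at least 10 counts in each library and at least 2 transcripts at 10% or more of the gene's TPM. In 10 of these the leading transcript was the same in both libraries, and in 7 it was not (Gnas, Grb10, H19, Inpp5f, Mirg, Nnat and Rian). Of Nnat, 88.6% fell on a transcript of 1135 bases in library 1, and 79.1% on one of 1213 bases in library 2. Of Gnas, 88.6% fell in library 1 on a transcript of 1695 bases, which stood at 297 and 132 TPM, and 67.3% in library 2 on one of 1716 bases from the same start region. Of Grb10, 72.5% fell on 1 transcript in library 1, which was listed at 0 in library 2, and 90.9% fell on another in library 2. For H19, with 17 and 26 counts in all, a short transcript led in library 1 with 85.9% and a longer one in library 2 with 73.0%. The same Meg3 transcript led in both libraries, with 77.5% and 30.1%. Among the other Meg3 transcripts, that of 695 bases stood at 0.12 and 12.8 TPM, that of 706 bases at 0.22 and 14.3 TPM, and that of 14548 bases at 1.79 and 1.80 TPM. Since both libraries come from 1 biosample, these shares show how far the assignment to transcripts moved between technical libraries.

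**Figure D4:**
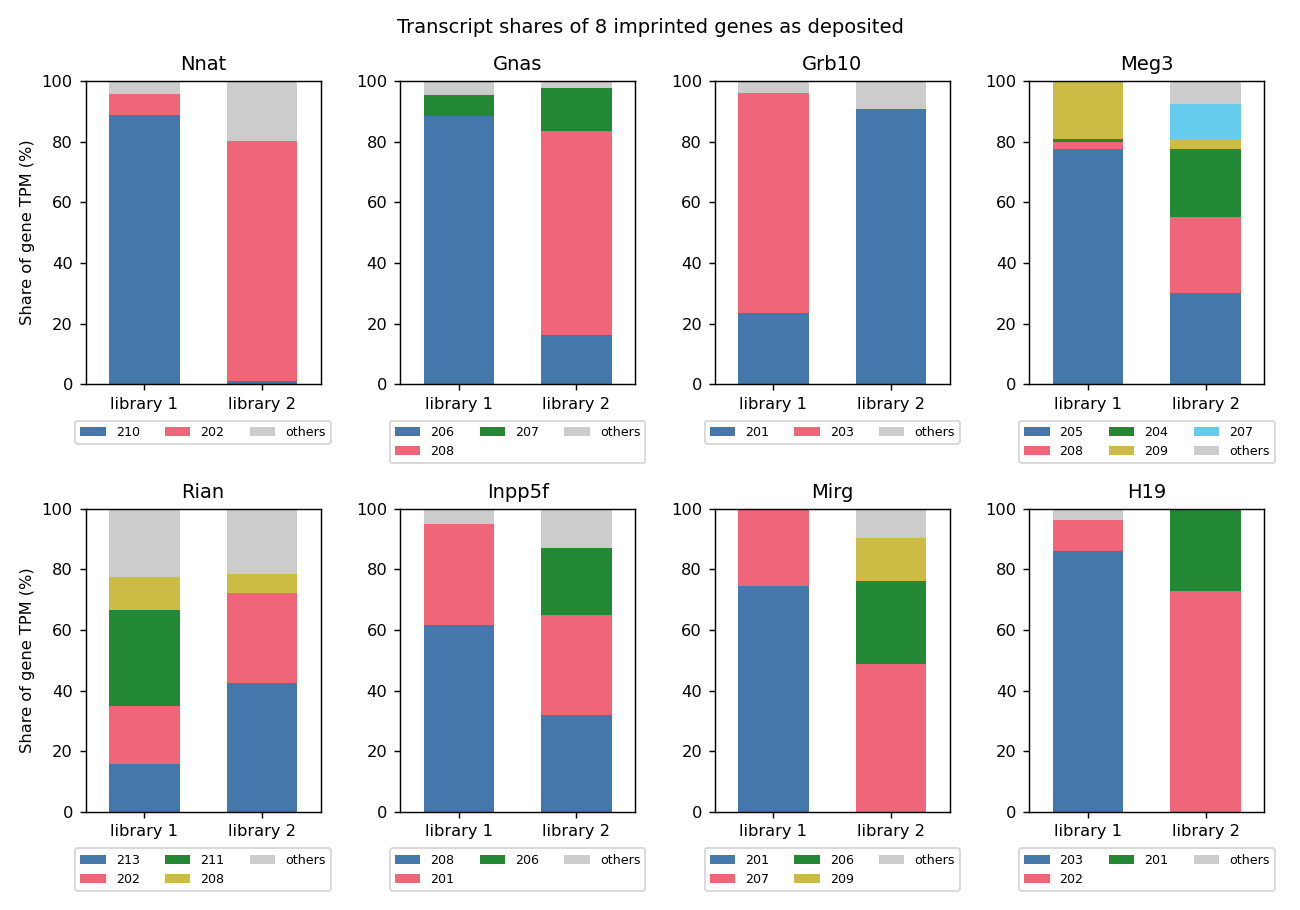
Share (%) of each gene's TPM held by its transcripts in library 1 and library 2, as deposited, for 8 imprinted genes; transcripts under 10% in both libraries are summed as others. The leading transcript differs between the libraries in every panel but that of Meg3, where the same transcript leads in both.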

How the data were processed

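Poly(A) RNA of 1 adipose biosample was measured in 2 technical libraries (19954869 and 19256807 expected counts). Genes and transcripts carry expected counts, which are estimates and may be fractional, and TPM and FPKM, all deposited by the authors, per the file headers. Each transcript's share of its gene is a percent that the authors deposited, per the file headers. Posterior mean counts and TPM stand beside them. The assembly is mm10 with the M4 annotation. The quantifier is not given in the sources used here, and the column names match RSEM output. Gene symbols, biotypes, positions and GC content are those of GENCODE M21 of the same assembly (42462 of 43346 identifiers matched), and promoters and microRNAs from RefSeq tables of GRCm38.p6.

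The members and lists were chosen with earlier results of these data known. Every imprinted gene is named, with values in full for those at a mean of 1 TPM, the noncoding and the called ones. Of every further list, the 3 genes of highest mean TPM are named, except for 1 marker list that is not reported here. Lists are described by counts and medians.

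Counts were rounded, 0.5 was added, and log2 ratios of library 2 to library 1 used TMM library sizes (edgeR 4.0.16, R 4.3.3). Genes needed 10 counts in sum. With 1 biosample no test between conditions exists and no p is given. Intervals are 95% Clopper-Pearson intervals, and cover counting error only, as floors do, since reads lacking molecular identifiers may stem from 1 molecule. A count not whole within 0.005 was taken as shared. The GC trend was removed with medians of 40 bins joined by lines. Alternatives were DESeq2 1.42.0 size factors, total counts, other filters, pseudocounts, fold limits and units, each library alone, and removal of the GC trend. Python 3.11.15, numpy 2.4.6, scipy 1.17.1, pandas 2.3.3 and matplotlib 3.10.9 were used. The signal tracks were left aside.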

Additional observations from a re-analysis of the deposited data

How the results depend on the processing

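The number of imprinted genes at 1 TPM or more in both libraries (23) stayed within 1.5 times that value under each alternative run, and was 23 to 30 with each library alone. Total counts as library sizes reversed the sign of the median ratio of the imprinted genes, from -0.34 to 0.067. They left 3 genes lower (9.09%, against 6.59% of all genes). With 100 or more counts on average the median ratio was -0.75, against 0.036 over all genes. At that filter 2 of 22 genes were higher and 5 lower (9.09% and 22.7%, against 31.2% and 17.7% of all genes). Removal of the GC trend left 4 genes higher (12.1%, against 9.9% of all genes) and changed the sign of 13 of 33 ratios. Of these, 6 were called before or after: H19 (-1.42), Kcnq1 (-0.88), Gnas (-2.23), Begain (-1.79), Nnat (-2.79) and Rian (0.29). The other 7 were Meg3, Mirg, Sgce, Asb4, Copg2, Inpp5f and Snrpn. Another 5 kept their sign and lost the call: Ube3a (-0.24), Kcnq1ot1 (-0.11), Zim1 (-0.47), Slc38a4 (-0.20) and Dio3 (0.72). At a limit of 1.5-fold 10 genes were higher and 15 lower (30.3% and 45.5%, against 36.2% and 28.8% of all genes). At 4-fold 5 were higher and 0 lower (against 18.97% and 1.77% of all genes), and these 5 had at most 3 counts in library 1. With DESeq2 size factors Slc38a4 lost its call, which left 5 genes lower (15.2%, against 16.5% of all genes). The paternal median level was 8.40 with FPKM, 16.8 TPM when rescaled without mitochondrial genes and their copies, and 7.96 to 11.3 TPM with each library alone. The maternal median was 10.8 TPM when rescaled, 3.59 TPM without the 4 genes imprinted in some tissues only, and 4.10 to 7.17 TPM with each library alone. The coding median was 15.1 TPM when rescaled and 6.13 to 10.8 TPM with each library alone. The noncoding median was 6.42 with posterior mean TPM, 4.53 with FPKM, 9.60 TPM when rescaled, and 5.41 to 5.89 TPM with each library alone. The cause of these changes was not tested. The Nnat exclusion was added after the data were seen and left the paternal median above the maternal one. A single library gives no ratio, so no value without a library exists for the ratios. No paired analysis was possible because the labels hold 1 group.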

Other observations

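Of 54 other imprinted genes listed from general knowledge, 49 matched the annotation (Peg13, Zim2, Zim3, Zfp264 and Peg3os did not), and 31 (63.3%) reached 1 TPM in both libraries. Their median levels were 3.99 and 8.11 TPM. Of the 40 with enough counts, 7 were higher and 7 lower in library 2 (17.5% each, against 30.7% and 17.5% of all tested genes). With the GC trend removed 6 were higher and 4 lower, where 9.9% and 8.55% of all genes were. The highest were Cd81, a tetraspanin (70.0 and 421 TPM), Wars, a tryptophanyl-tRNA synthetase (40.01 and 296 TPM), and Pon3, a paraoxonase (62.0 and 42.8 TPM). Kcnk9, Cpa4 and Nctc1 were at 0 in both libraries.

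Of 16 genes that maintain imprints or methylate DNA, 13 reached 1 TPM in both libraries, with medians of 8.51 and 12.0 TPM. Among 14 with enough counts, 3 were higher and 3 lower in library 2 (21.4% each, against 30.7% and 17.5% of all tested genes). With the GC trend removed 1 was higher and 0 lower, where 9.9% and 8.55% of all genes were. Trim28, the corepressor that ZFP57 recruits, stood at 10.7 and 132 TPM, Ehmt2, a histone methyltransferase, at 13.1 and 94.8 TPM, and Ctcf, the insulator protein of the H19 and Igf2 control region, at 28.6 and 32.1 TPM.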
